A study of Mus musculus with 8 samples.

Results

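Teneurins and latrophilins are membrane proteins that bind each other across the space between neighbouring neurons, and the FLRT proteins bind latrophilins as well. The genes described here were chosen by name, with earlier results of these data known. They are the 4 teneurins Tenm1, Tenm2, Tenm3 and Tenm4 and the 3 latrophilins Adgrl1, Adgrl2 and Adgrl3. With them are 2 FLRT genes, Flrt2 and Flrt3. Of these 9 genes, 8 had a row in the table of 14166 genes, and Flrt3 was not analysed here. Their RNA was counted in nuclei of the dorsal telencephalon, from which the cerebral cortex develops, of E15.5 mouse embryos (E, embryonic day) of the strain C57BL/6J. There were 4 wildtype samples and 4 samples from embryos with both copies of Pantr2 knocked out. Pantr2 is a gene for a long noncoding RNA. Its own level was not analysed here, so the genotype labels were not checked against it.

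Teneurins are large proteins that span the membrane once, carry most of their mass outside the cell and form dimers, and they are known to match axons with their target cells. Latrophilins are adhesion G protein-coupled receptors. They bind teneurins through one outer domain and FLRT proteins through another, and the resulting complex is known to take part in the guidance of migrating neurons and in the making of synapses. FLRT proteins also bind the netrin receptors of the Unc5 family, and Flrt2 is known to take part in the migration of cortical neurons.

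The genes are long and lie on 7 chromosomes. In the GENCODE M21 annotation of GRCm38, Tenm2 spans 1229 kb (chr11:36006656-37235964, minus strand), Tenm1 901 kb (chrX:42527866-43429126, minus strand), Tenm4 740 kb (chr7:96171246-96911093, plus strand) and Tenm3 616 kb (chr8:48227682-48843951, minus strand). Among the receptors, Adgrl3 spans 805 kb (chr5:81020138-81825133, plus strand), Adgrl2 175 kb (chr3:148815583-148990555, minus strand) and Adgrl1 41.9 kb (chr8:83900105-83941954, plus strand). Flrt2 spans 93.0 kb (chr12:95692226-95785215, plus strand). These spans hold exons and introns together, and whether the counts include intronic reads is not given in the sources used here. Because UMIs from such genes may depend on length, levels are compared below between samples and clusters for 1 gene at a time, never between genes.

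All 8 genes had at least 1 promoter entry in RefSeq (GRCm38.p6), each of 300 bases from 250 before to 50 after a start, and they gave 11 entries together. Shown are the entries of the 2 genes with calls between the genotypes in opposite directions in the same clusters, Adgrl3 and Tenm4, and of Tenm1, which lies at the other end of the range in base content. They are chr5:81020321-81020620 (plus strand), chr7:96170994-96171293 (plus strand) and chrX:43274735-43275034 (minus strand), and capitals mark CG pairs. The Tenm1 entry lies inside the GENCODE span of the gene, downstream of its start there. So do the entries of Tenm2, Tenm3 and Adgrl2 and another Tenm4 entry (chr7:96211421-96211720). The Adgrl3 entries also lie inside the span, close to its start. Base counts of such entries do not describe the sequence at the GENCODE start.
Adgrl3 promoter: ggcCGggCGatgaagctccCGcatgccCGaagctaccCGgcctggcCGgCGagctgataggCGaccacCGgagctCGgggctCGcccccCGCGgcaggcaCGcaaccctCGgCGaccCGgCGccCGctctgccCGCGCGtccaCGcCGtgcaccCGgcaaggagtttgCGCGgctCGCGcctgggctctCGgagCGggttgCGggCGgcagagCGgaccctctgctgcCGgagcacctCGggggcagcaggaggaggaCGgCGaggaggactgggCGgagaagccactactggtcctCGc
Tenm4 promoter: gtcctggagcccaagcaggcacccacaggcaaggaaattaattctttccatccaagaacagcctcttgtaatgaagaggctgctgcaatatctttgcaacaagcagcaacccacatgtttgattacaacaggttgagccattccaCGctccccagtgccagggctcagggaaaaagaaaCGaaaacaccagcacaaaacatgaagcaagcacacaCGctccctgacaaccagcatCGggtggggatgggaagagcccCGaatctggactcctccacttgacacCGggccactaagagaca
Tenm1 promoter: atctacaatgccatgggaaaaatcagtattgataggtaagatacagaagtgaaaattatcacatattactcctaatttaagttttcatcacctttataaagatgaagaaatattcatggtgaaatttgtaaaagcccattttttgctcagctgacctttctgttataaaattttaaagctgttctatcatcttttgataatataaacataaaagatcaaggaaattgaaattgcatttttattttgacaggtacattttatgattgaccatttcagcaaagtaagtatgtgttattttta
This Adgrl3 entry held 40 CG pairs at a GC content of 75.3%, the Tenm4 entry 6 pairs at 52.0% and the Tenm1 entry 0 pairs at 27.0%. Over all 32851 promoter entries the median was 7 CG pairs at 52.7% GC, and 26.5% of entries held at least 20 pairs. All 3 entries of Adgrl3 (20, 21 and 40 pairs) and the 1 entry of Adgrl1 (28 pairs) were at or above 20, while the teneurin entries held between 0 and 12. The Adgrl2 entry held 4 pairs at 38.0% GC and the Flrt2 entry 14. The octamer ATGCAAAT, the letters read by POU-domain factors, was searched on both strands and was in 0 of the 11 entries and in 1.74% of all entries. The letters TATAAA were in 3 of the 11 (Tenm1, Adgrl2 and 1 of the 3 Adgrl3 entries) and in 13.6% of all, again on either strand. These matches describe letters in these windows only.

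The 8 samples held 67319 nuclei, with between 20446698 and 34083796 UMIs (unique molecular identifiers, each standing for 1 captured RNA molecule) per sample and at least 1496 per nucleus. Of 66806 distinct cell barcodes, 510 occurred in 2 or more samples. The authors' deposited annotation placed each nucleus in 1 of 7 numbered clusters, named here from marker genes. Cluster 1 was upper-layer excitatory neuron-like, with 5 of 6 markers (among them Cux1, Cux2, Pou3f1 and Pou3f2). Clusters 2 (Bcl11b, Fezf2, Ldb2, Sox5) and 3 (Tle4, Foxp2, Tbr1, Hs3st4) were deep-layer excitatory neuron-like, with 4 of 9 markers each. Some clusters also carried markers of other classes, such as the upper-layer marker Rorb in cluster 2. Cluster 4 was apical progenitor-like, with 9 of 9 markers, and cluster 5 intermediate progenitor-like, with 5 of 5. Clusters 6 and 7 carried too few markers of any class to be named. Tafa1, Tafa2 and Nell1 were among the genes that led cluster 6. Knockout replicate 4 stood apart in cluster 6, where it held 314 nuclei, or 4.31% of the sample. Levels are given as CPM, counts per 1000000: the UMIs of a gene scaled to 1000000 UMIs of the sample or of the sample's nuclei in a cluster. Clusters were made from the same nuclei's expression, so differences between clusters are descriptions with no test.

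Among the teneurins, each gene had a cluster order of its own in the wildtype samples. Tenm1 was highest in deep-layer-like cluster 3, at 693, 719, 729 and 694 CPM in wildtype replicates 1 to 4, and was 423 ± 51.5 CPM (SD, n = 4) in cluster 6. It fell to 64.4 ± 1.77 CPM in upper-layer-like cluster 1 and 47.2 ± 9.77 CPM in progenitor-like cluster 4. Cluster 3 was thus 15.0-fold above cluster 4, and its 4 values lay above those of every other cluster. Clusters 7 (194 ± 35.4 CPM) and 2 (186 ± 36.3 CPM) did not differ beyond their spread, with cluster 7 above cluster 2 in 2 of 4 samples.

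Tenm2 was highest in both deep-layer-like clusters, at 11245 ± 1979 CPM in cluster 2 and 9429 ± 1259 CPM in cluster 3. Their ranges overlapped, although cluster 2 was the higher of the pair in 4 of 4 samples. Clusters 7 (5646 ± 427 CPM), 6 (4487 ± 133 CPM) and 1 (3554 ± 716 CPM) followed. The progenitor-like clusters 5 (1447 ± 241 CPM) and 4 (1266 ± 243 CPM) were lowest and overlapped. Tenm2 thus spanned 8.88-fold between the highest and the lowest cluster.

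Tenm3, a teneurin known for its role in hippocampal and visual wiring, spanned 3.39-fold. Its means were 994 ± 247 CPM in cluster 2, 804 ± 76.4 CPM in cluster 3 and 710 ± 164 CPM in cluster 1, with ranges that overlapped from each to the next. Apical progenitor-like cluster 4 held 516 ± 35.6 CPM. The lowest were clusters 7 (297 ± 40.1 CPM) and 5 (293 ± 29.4 CPM), which did not differ beyond their spread. In cluster 2, wildtype replicate 2 had 662 CPM against 1245, 1088 and 981 CPM in replicates 1, 3 and 4, and that replicate was also the lowest for Tenm3 in clusters 1 (521 CPM) and 3 (712 CPM).

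Tenm4 had a different order, with its maximum in intermediate progenitor-like cluster 5, at 3751, 3850, 3876 and 3990 CPM in wildtype replicates 1 to 4. Cluster 1 came next, at 3012 ± 130 CPM, and the values of these clusters did not overlap. Clusters 3 (2445 ± 104 CPM), 2 (2336 ± 213 CPM) and 7 (2318 ± 56.4 CPM) could not be separated by their spread. Clusters 4 (1627 ± 168 CPM) and 6 (1451 ± 165 CPM) were lowest and overlapped, and with TMM scaling (edgeR's correction for the composition of a library) cluster 4 took the lowest place. Its range over clusters was 2.66-fold.

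The 3 receptors also differed from each other in their order. Adgrl3 was concentrated in cluster 6, with 5081, 5469, 5364 and 4953 CPM in wildtype replicates 1 to 4, which was 4.06-fold above the next cluster. That next cluster was 2, at 1286 ± 115 CPM, followed by clusters 1 (1104 ± 73.3 CPM) and 7 (1082 ± 83.2 CPM), which overlapped. The lowest were the progenitor-like clusters 5 (577 ± 84.0 CPM) and 4 (453 ± 64.9 CPM). Cluster 6 held 42.4% of all Adgrl3 UMIs of a wildtype sample on average (38.6% to 47.2%), compared with between 6.29% and 17.8% for the other 7 genes.

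Adgrl2 was highest in clusters 1 (797 ± 40.8 CPM) and 2 (795 ± 78.4 CPM), which did not differ beyond their spread. It stood at 501 ± 21.3 CPM in cluster 5, 463 ± 47.1 CPM in cluster 3 and 424 ± 19.9 CPM in cluster 4, each overlapping the next. Clusters 6 (344 ± 15.0 CPM) and 7 (200 ± 38.6 CPM) were lowest, with no overlap between them. Adgrl1 was the receptor gene with the smallest range, from 68.9 ± 9.94 CPM in cluster 1 to 36.3 ± 8.42 CPM in cluster 4, or 1.90-fold, and every cluster overlapped its neighbour in the order. Its replicate 1 was the lowest sample of its genotype over all nuclei, with 43.8 CPM in wildtype and 37.8 CPM in knockout.

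Flrt2, the FLRT gene of the set, was highest in the deep-layer-like clusters 2 (637 ± 66.5 CPM) and 3 (596 ± 42.7 CPM), which overlapped. It decreased through clusters 7 (360 ± 16.1 CPM), 1 (285 ± 6.04 CPM) and 6 (251 ± 17.1 CPM), each separated from the next. The progenitor-like clusters 4 (119 ± 28.4 CPM) and 5 (104 ± 13.9 CPM) were lowest and overlapped. The range was 6.12-fold.

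**Figure D1:**
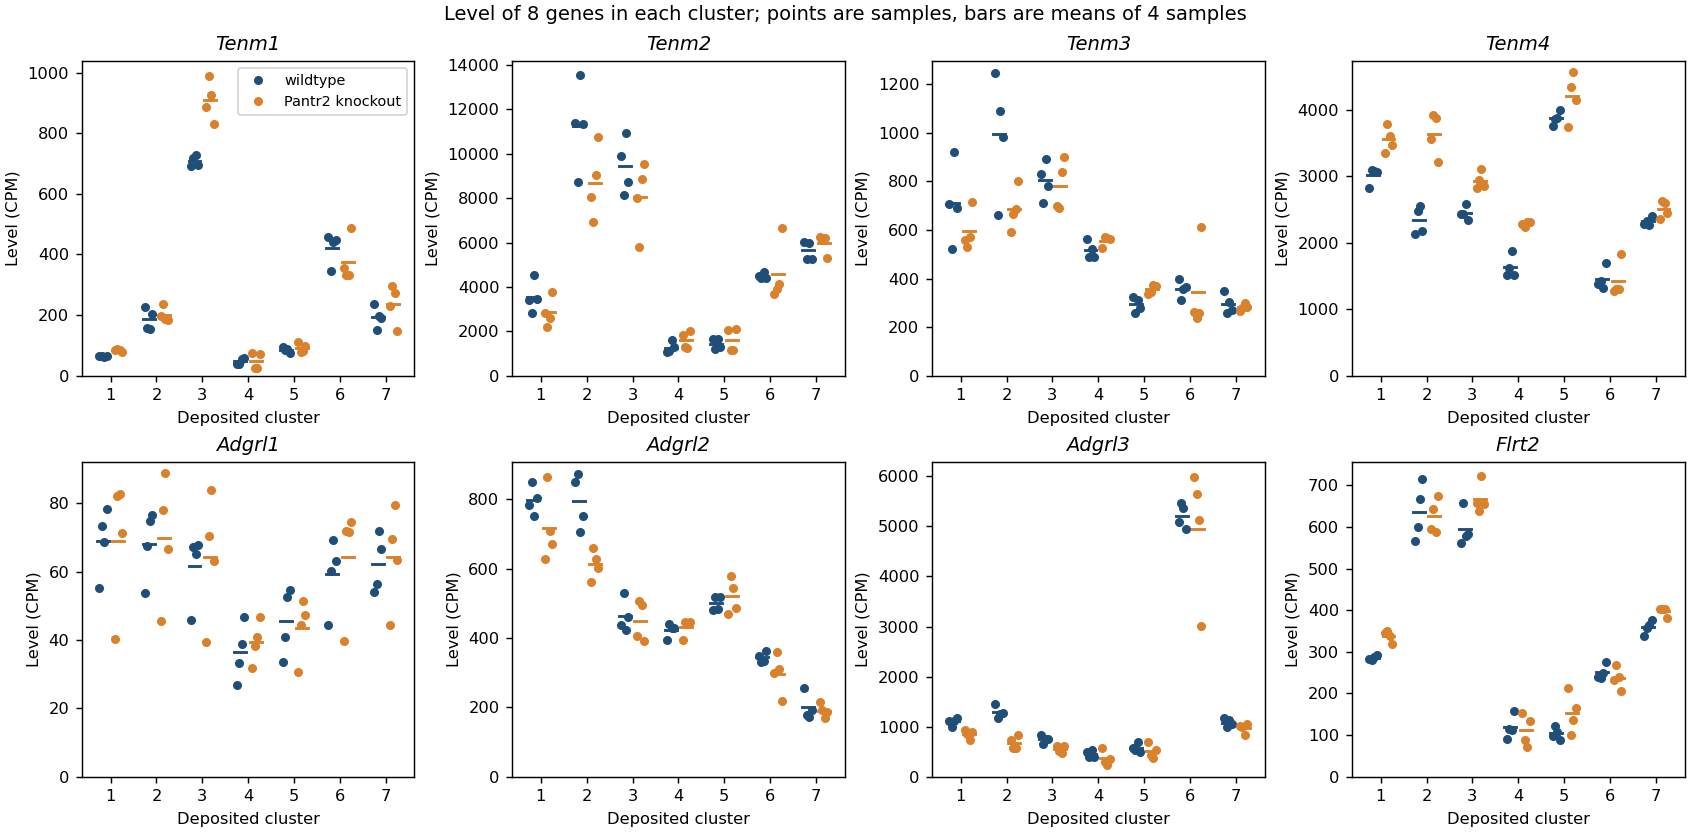
Level in CPM (vertical axis, linear, from 0, with its own scale for each gene) of the 8 genes in the 7 deposited clusters (horizontal axis). Points are samples and bars are means of 4 samples, in blue for wildtype and orange for Pantr2 knockout. Adgrl3 stands out in cluster 6, Tenm1 in cluster 3, and Tenm4 is higher in all 4 knockout samples in clusters 1 to 4.

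Flrt2 and Tenm2 followed each other most closely over the 28 wildtype sums of a sample and a cluster, with a Pearson correlation of 0.96 on log2(CPM + 1). These sums come from 4 libraries, and the 7 sums of a library share its preparation and depth. The other pairs reached at most 0.74 (Tenm1 and Tenm2), and the lowest value was -0.47 (Tenm4 and Adgrl3). Among 8951 genes with a mean of at least 10 CPM, those most like Tenm2 were Ryr3 (0.987), Hivep2 (0.982) and Spock1 (0.979), and those most like Flrt2 were Spock1 (0.977), Homer1 (0.971) and Hspa12a (0.970). Tenm1 was most like Ube3a (0.963), Hecw2 (0.960) and Trpm3 (0.957). For Tenm4 the nearest were St6gal1 (0.944), Klhl7 (0.906) and Lzts1 (0.880), and for Tenm3 they were Tmtc1 (0.867), Magi3 (0.809) and Ctnnd2 (0.801). Adgrl3 was nearest to Kcnmb2 (0.924), Tafa2 (0.921) and Fstl4 (0.915), Adgrl2 to 9130024F11Rik (0.891), Tmem44 (0.881) and Rbm24 (0.877), and Adgrl1 to Dpysl3 (0.874), Stmn2 (0.842) and Gpr85 (0.842).

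Single nuclei usually held RNA of more than 1 teneurin. Nuclei were thinned to 1400 UMIs each, since clusters differed in depth (median 2349 to 3122 UMIs). In deep-layer-like cluster 3, 25.7% ± 2.47 (SD, n = 4) of wildtype nuclei had a UMI of all 4 teneurins, against 3.04% ± 0.518 in cluster 1 and 1.33% ± 0.662 in cluster 4. Nuclei with no teneurin UMI made up 10.0% ± 2.02 of apical progenitor-like cluster 4 and between 0.274% and 4.47% of the other clusters. A teneurin and a latrophilin were detected together in 89.8% ± 1.39 of nuclei in cluster 6, the highest share, and in 55.4% ± 3.04 in cluster 4, the lowest.

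**Figure D2:**
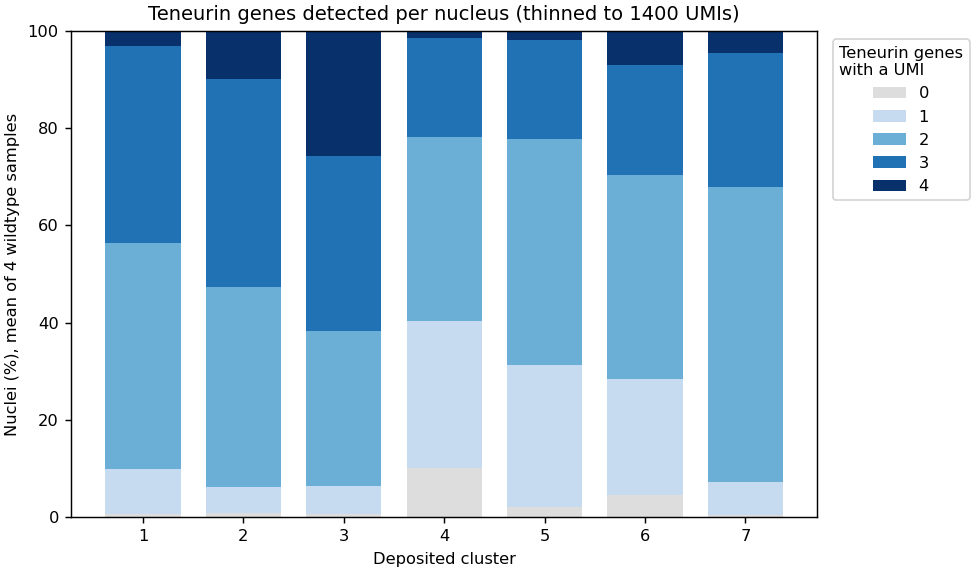
Share of wildtype nuclei (vertical axis, percent, mean of 4 samples) with a UMI of 0, 1, 2, 3 or 4 teneurin genes (shades, light to dark) in each deposited cluster (horizontal axis), after thinning to 1400 UMIs. The darkest segment, nuclei with all 4, is 25.7% in cluster 3 and 1.33% in cluster 4.

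By gene, the thinned share of nuclei with an Adgrl3 UMI ran from 91.8% ± 0.649 in cluster 6 to 29.3% ± 3.25 in cluster 4 (96.2% and 44.5% unthinned), and that of Tenm1 from 48.9% ± 0.626 in cluster 3 to 4.63% ± 0.929 in cluster 4 (65.4% and 8.62% unthinned). Tenm4 was detected in 95.0% ± 0.850 of nuclei in cluster 5 and 69.7% ± 4.37 in cluster 6 (97.1% and 82.5% unthinned). Adgrl1 stayed between 4.73% and 9.10% in every cluster. No cluster is known to lack these genes, so the share from free RNA could not be set. The lowest cluster's share is its upper limit only if free RNA was equal in every cluster, which was not tested.

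Between the genotypes, 5 of the 8 genes changed in at least 1 cluster in edgeR's quasi-likelihood test at a Benjamini-Hochberg adjusted p under 0.05. Tenm4, Tenm1 and Flrt2 were higher in knockout nuclei, and Adgrl3 and Adgrl2 were lower, where they were called. Over the 7 clusters there were 11 calls among 56 combinations of gene and cluster, and in 0 of the 11 did the values of the groups overlap. That is common among called genes: over the 7 clusters, 93.2% of all calls had groups that did not overlap, against 8.83% of all tests. Adgrl1, Tenm2 and Tenm3 had no call in these fits, which held genotype alone. With the replicate number as a block, Tenm2 and Tenm3 were called in cluster 2. By cluster, 4 of 8 genes were called in cluster 1 (4.84% of all genes tested there), 3 of 8 in cluster 2 (9.11%), 3 of 8 in cluster 3 (3.36%) and 1 of 8 in cluster 4 (4.29%). Over all nuclei 2 of 8 were called (5.26%). None of the 8 was called in clusters 5, 6 and 7, where 1.77%, 0.779% and 1.03% of all genes were. In those 3 clusters edgeR gave 2, 0 and 1 of the 8 genes an unadjusted p under 0.05, and DESeq2 called 0 in each. Because the 8 genes were listed with earlier results of these data known, these counts cannot show an excess over all genes. The median log2 fold change of the 8 genes was -0.20 in cluster 2 against 0.00 over all genes tested, and it lay between -0.06 and 0.14 in the other clusters. Nothing in the labels says that the samples of a group were separate litters, so the p-values measure the spread between these samples.

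**Figure D3:**
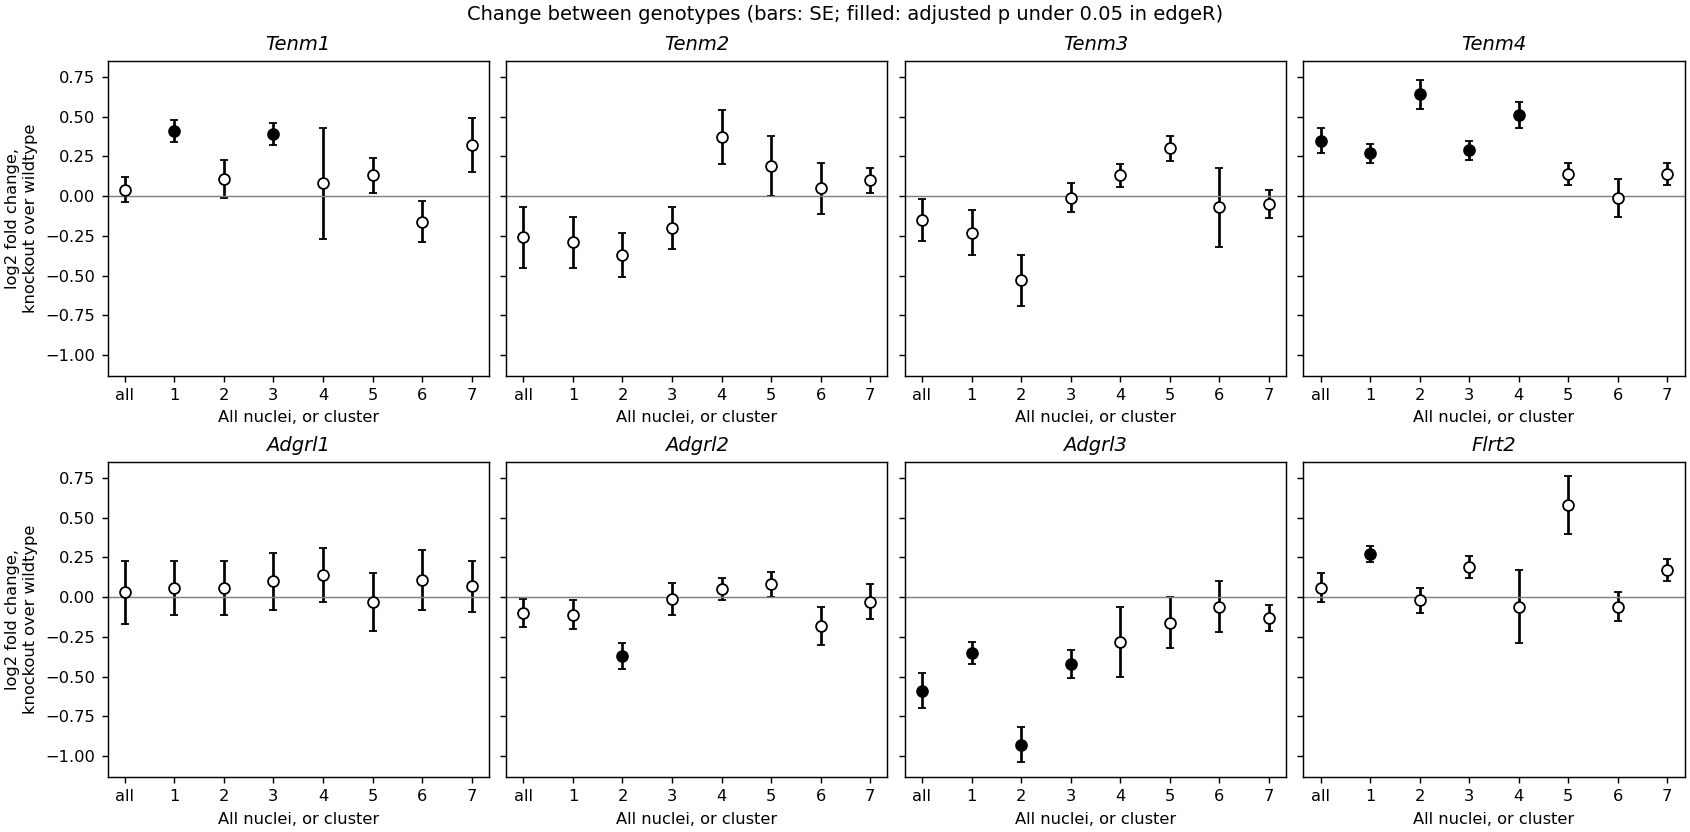
Log2 fold change of knockout over wildtype (vertical axis) for each of the 8 genes, over all nuclei and in each cluster (horizontal axis), from edgeR. Bars are standard errors, taken as the absolute log2 fold change over the square root of the test's F statistic. Filled points have an adjusted p under 0.05. Tenm4 has filled points above 0 over all nuclei and in clusters 1 to 4, and Adgrl3 has filled points below 0 over all nuclei and in clusters 1 to 3.

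Tenm4 was the teneurin that rose in most clusters. Over all nuclei it was 2253, 2485, 2480 and 2456 CPM in wildtype replicates 1 to 4 and 2788, 3196, 3228 and 2981 CPM in knockout replicates 1 to 4. Every knockout sample was above every wildtype sample. The log2 fold change was 0.35 ± 0.08 (SE; edgeR-adjusted p = 0.0323). In such sums, more nuclei of a type and more RNA per nucleus cannot be told apart. Adjusted p rose to 0.0775 without wildtype replicate 1, 0.0777 without wildtype replicate 2, 0.0916 without wildtype replicate 4, 0.103 without knockout replicate 2 and 0.124 without knockout replicate 3, and to 0.0565 without the nuclei of cluster 6.

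Within clusters, the change of Tenm4 was largest in deep-layer-like cluster 2. It had 2131, 2481, 2556 and 2177 CPM in wildtype and 3556, 3919, 3874 and 3206 CPM in knockout replicates 1 to 4 there, a log2 fold change of 0.64 ± 0.09 (edgeR-adjusted p = 4.39e-04). The groups were separated by more than the range of the wildtype samples. Knockout cluster 2 thereby reached the level of knockout cluster 1 (3639 ± 330 and 3553 ± 187 CPM), whereas in wildtype cluster 2 was below cluster 1 in 4 of 4 samples.

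Apical progenitor-like cluster 4 showed the next largest rise of Tenm4. Its levels were 1509, 1619, 1867 and 1512 CPM in wildtype and 2281, 2237, 2307 and 2307 CPM in knockout, and the log2 fold change was 0.51 ± 0.08 (edgeR-adjusted p = 0.00311). The 4 knockout values were close together and all above the wildtype values. The calls in clusters 2 and 4 held in all 13 alternatives run.

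The rises of Tenm4 in clusters 1 and 3 were smaller. In cluster 1 it had 2818, 3098, 3072 and 3059 CPM in wildtype and 3351, 3785, 3606 and 3469 CPM in knockout (log2 fold change 0.27 ± 0.06; edgeR-adjusted p = 0.0235). In cluster 3 it had 2434, 2426, 2586 and 2334 CPM in wildtype and 2822, 2947, 3108 and 2846 CPM in knockout (log2 fold change 0.29 ± 0.06; edgeR-adjusted p = 0.0180). Neither pair of groups overlapped. The cluster 1 call was lost without wildtype replicate 1 (adjusted p = 0.0862), 2 (0.0588) or 4 (0.0617) or knockout replicate 2 (0.103) or 3 (0.0995), and the cluster 3 call without wildtype replicate 1 (0.0662), 2 (0.0592) or 4 (0.0776) or knockout replicate 3 (0.0826). In clusters 5, 6 and 7 its log2 fold changes lay between -0.01 and 0.14.

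Deposited cell cycle angles (tricycle positions, an estimate of where a nucleus stands in the cell cycle) placed the nuclei of cluster 4 along the cycle. Tenm4 was higher in knockout in each of 3 windows of the angle with no overlap between the groups. In the G2/M window it was 1315, 1370, 1503 and 1273 CPM in wildtype and 2000, 1899, 1975 and 2015 CPM in knockout. The S window held 1657 to 2088 CPM in wildtype and 2321 to 2359 CPM in knockout, and the G1/G0 window 1414 to 2269 and 2654 to 3003 CPM. In both genotypes the mean of Tenm4 was lowest in G2/M. Adgrl3 also had its lowest mean there, at 343 ± 64.5 CPM in wildtype against 557 ± 46.3 CPM in G1/G0, and its groups overlapped in every window. Adgrl2 ran the other way in wildtype, from 374 ± 58.7 CPM in G1/G0 to 460 ± 10.1 CPM in G2/M. The angle was computed from the same nuclei, so these values carry no test. Windows held between 67 and 1227 nuclei per sample.

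**Figure D4:**
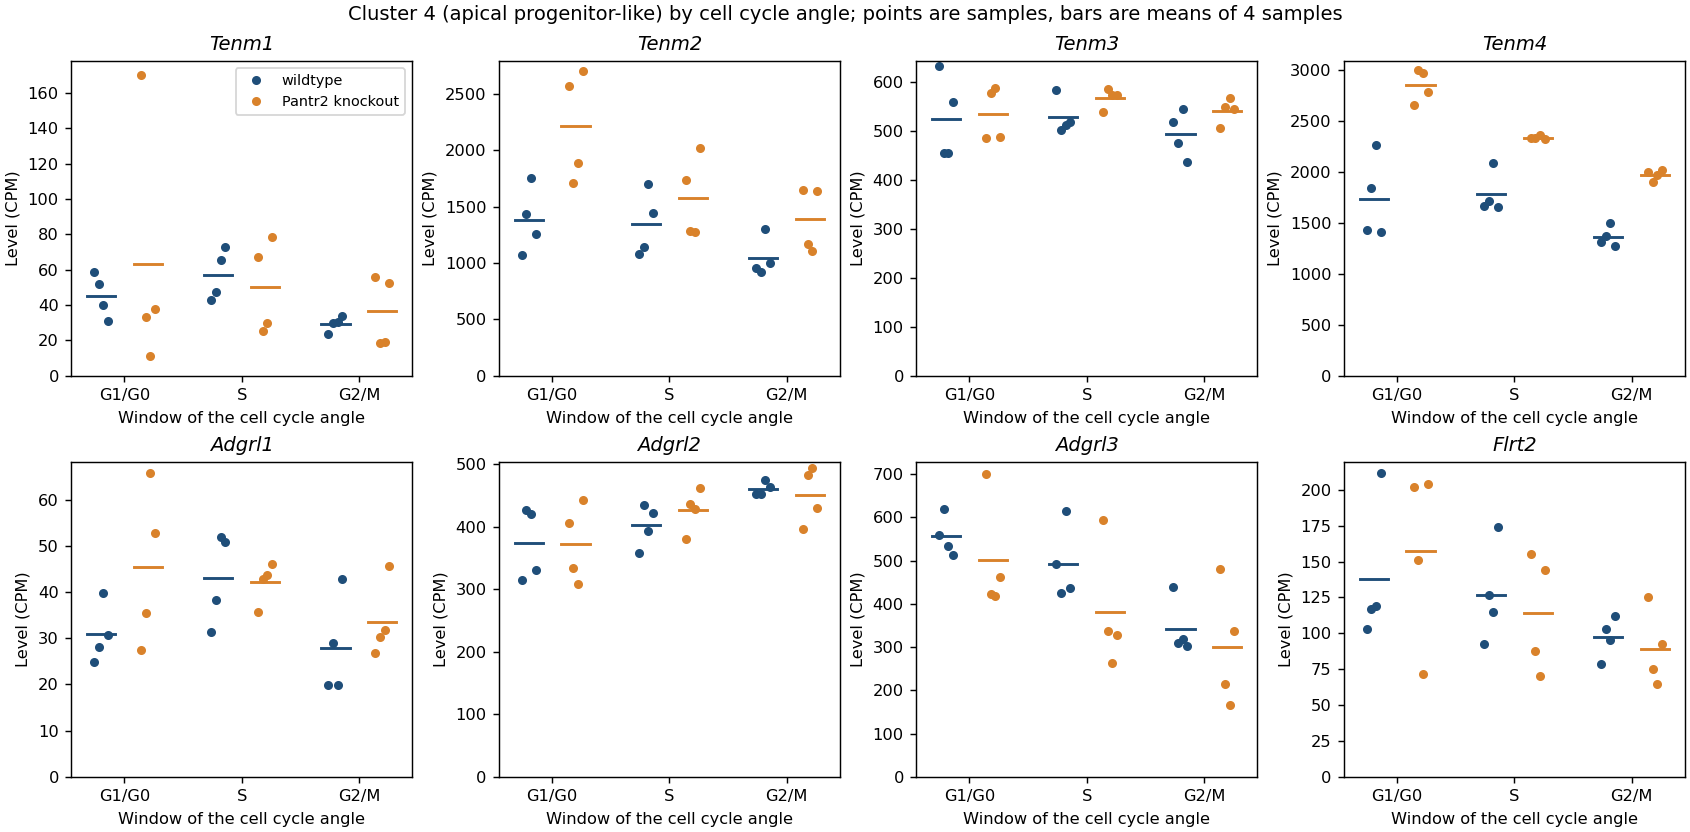
Level in CPM (vertical axis, from 0, with its own scale for each gene) of the 8 genes in cluster 4 in 3 windows of the deposited cell cycle angle (horizontal axis), with points for samples, bars for means of 4 samples, wildtype in blue and knockout in orange. Tenm4 is higher in all 4 knockout samples in each window, and the groups of Adgrl3 overlap in each.

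Tenm1 rose in a neuron cluster where it was low and in the one where it was highest. In upper-layer-like cluster 1 it had 63.8, 65.7, 62.2 and 66.0 CPM in wildtype and 83.5, 87.8, 85.7 and 77.0 CPM in knockout replicates 1 to 4 (log2 fold change 0.41 ± 0.07; edgeR-adjusted p = 0.00245). In deep-layer-like cluster 3 it had 693, 719, 729 and 694 CPM in wildtype and 886, 990, 927 and 831 CPM in knockout (log2 fold change 0.39 ± 0.07; edgeR-adjusted p = 0.00524). Neither pair of groups overlapped, and both calls held in all 13 alternatives. Since Tenm1 is X-linked, these included a term for sex read from Xist. That term split the samples by whether they held any Xist UMI, and how well it gives the sex was not tested. The thinned share of nuclei with a Tenm1 UMI in cluster 3 was 48.2% to 49.7% in wildtype and 54.6% to 61.1% in knockout. Over all nuclei Tenm1 was 258, 246, 296 and 269 CPM in wildtype and 257, 266, 273 and 296 CPM in knockout, which overlapped (log2 fold change 0.04 ± 0.08; edgeR-adjusted p = 0.825). Cluster 6, the second highest for Tenm1, held 17.8% of its UMIs in wildtype samples and 8.38% in knockout samples on average.

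Tenm2 did not pass the test over all nuclei, at 5829, 4820, 7219 and 5570 CPM in wildtype and 4414, 3560, 5000 and 6385 CPM in knockout (log2 fold change -0.26 ± 0.19; edgeR-adjusted p = 0.495). The groups overlapped, and knockout replicate 4 was above 3 of the 4 wildtype samples. Tenm3 likewise overlapped, at 713, 507, 718 and 620 CPM in wildtype and 502, 526, 574 and 674 CPM in knockout (log2 fold change -0.15 ± 0.13; edgeR-adjusted p = 0.582).

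In cluster 2 the log2 fold changes of both were negative, -0.37 ± 0.14 for Tenm2 (edgeR-adjusted p = 0.143) and -0.53 ± 0.16 for Tenm3 (0.0518). With the replicate number as a block both passed, at -0.37 (adjusted p = 0.0151) and -0.50 (0.0433). Tenm2 also passed without wildtype replicate 2 (0.0476) or knockout replicate 4 (0.0433). Tenm3 passed with DESeq2 (0.0170), with no filter on low counts (0.0478), without wildtype replicate 2 (0.00182) and without knockout replicate 4 (0.0389). The wildtype and knockout ranges overlapped for both genes.

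Elsewhere the values of Tenm3 separated the groups in intermediate progenitor-like cluster 5, where they were 323, 260, 313 and 279 CPM in wildtype and 336, 344, 373 and 368 CPM in knockout. That difference, 0.30 ± 0.08 on the log2 scale, did not pass (edgeR-adjusted p = 0.0978) under the main setting or any of 13 alternatives. In cluster 6, Tenm3 was 310 to 396 CPM in wildtype, 264, 236 and 256 CPM in knockout replicates 1 to 3 and 614 CPM in knockout replicate 4. The log2 fold change was -0.07 ± 0.25 with that sample and -0.49 ± 0.09 without it (edgeR-adjusted p = 0.973 and 0.0286).

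Among the receptors, Adgrl3 showed the largest decrease of the 8 genes. Over all nuclei it was 1400, 1273, 1547 and 1310 CPM in wildtype and 1144, 895, 808 and 816 CPM in knockout replicates 1 to 4. Every knockout sample was below every wildtype sample (log2 fold change -0.59 ± 0.11; edgeR-adjusted p = 0.0147). Without knockout replicate 2 the adjusted p was 0.0583, and without knockout replicate 3 it was 0.0604. Cluster 6, which held the highest Adgrl3 level, made up 9.37% to 12.7% of wildtype samples and 4.31% to 8.11% of knockout samples. With its nuclei left out, an alternative chosen after seeing the data, the log2 fold change was -0.48 (edgeR-adjusted p = 0.0259).

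Deep-layer-like cluster 2 showed the strongest change of Adgrl3. It had 1443, 1167, 1258 and 1277 CPM in wildtype and 733, 578, 565 and 826 CPM in knockout, a log2 fold change of -0.93 ± 0.11 (edgeR-adjusted p = 2.02e-04) that was called in all 13 alternatives. The highest knockout sample was below the lowest wildtype sample. The thinned share of nuclei with an Adgrl3 UMI went from 71.5% ± 3.75 in wildtype to 47.1% ± 6.90 in knockout, and the share with both a teneurin and a latrophilin UMI from 87.9% ± 1.06 to 76.4% ± 2.88.

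Decreases in the other excitatory neuron-like clusters were smaller. In cluster 1 Adgrl3 had 1120, 1002, 1116 and 1177 CPM in wildtype and 933, 845, 734 and 887 CPM in knockout (log2 fold change -0.35 ± 0.07; edgeR-adjusted p = 0.0137). In cluster 3 it had 830, 652, 761 and 761 CPM in wildtype and 615, 504, 477 and 613 CPM in knockout (log2 fold change -0.42 ± 0.09; edgeR-adjusted p = 0.0179). The groups did not overlap in either cluster. The call in cluster 1 was lost without wildtype replicate 4 (adjusted p = 0.0554) or knockout replicate 3 (0.0541), and that in cluster 3 without wildtype replicate 1 (0.0565), knockout replicate 2 (0.0649) or knockout replicate 3 (0.0688).

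In cluster 6 itself Adgrl3 did not differ beyond its spread, at 4953 to 5469 CPM in wildtype and 5996, 5652, 5133 and 3016 CPM in knockout replicates 1 to 4 (log2 fold change -0.06 ± 0.16; edgeR-adjusted p = 0.955). Knockout replicate 4 was the lowest there, and the other 3 knockout samples lay within or above the wildtype range. In progenitor-like cluster 4 the values overlapped (398 to 528 and 234 to 567 CPM), and Adgrl3 passed only without knockout replicate 1 (-0.58; adjusted p = 0.0454).

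Adgrl2 fell in cluster 2, the only cluster of the 7 in which it was called. It had 849, 872, 707 and 753 CPM in wildtype and 561, 659, 627 and 602 CPM in knockout replicates 1 to 4, with no overlap (log2 fold change -0.37 ± 0.08; edgeR-adjusted p = 0.00879). All 13 alternatives kept this call. Over all nuclei Adgrl2 had 545, 585, 499 and 549 CPM in wildtype and 438, 578, 520 and 475 CPM in knockout, which overlapped (log2 fold change -0.10 ± 0.09; edgeR-adjusted p = 0.597). Outside cluster 2 its log2 fold changes lay between -0.18 and 0.08.

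Adgrl1 was not called under any setting. Over all nuclei it was 43.8, 59.5, 65.1 and 66.8 CPM in wildtype and 37.8, 64.5, 73.2 and 62.2 CPM in knockout (log2 fold change 0.03 ± 0.20; edgeR-adjusted p = 0.953). In both genotypes replicate 1 was the low sample. Its log2 fold changes in the clusters lay between -0.03 and 0.14, with standard errors of 0.16 to 0.19.

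Flrt2, the latrophilin ligand, rose in upper-layer-like cluster 1. It had 282, 280, 287 and 293 CPM in wildtype and 345, 349, 337 and 318 CPM in knockout replicates 1 to 4, with no overlap, a log2 fold change of 0.27 ± 0.05 (edgeR-adjusted p = 0.00854) and a call in all 13 alternatives. In cluster 7 the groups were also separate, at 338, 358, 365 and 377 CPM in wildtype and 404, 404, 403 and 381 CPM in knockout, but the difference did not pass (log2 fold change 0.17 ± 0.07; edgeR-adjusted p = 0.413). In cluster 5 it had 98.8, 121, 108 and 88.5 CPM in wildtype and 213, 101, 136 and 164 CPM in knockout, which overlapped through knockout replicate 2. The log2 fold change there was 0.58 ± 0.18 (edgeR-adjusted p = 0.182) with that sample and 0.75 ± 0.14 without it (0.0207). Over all nuclei Flrt2 had 329, 372, 391 and 388 CPM in wildtype and 358, 355, 390 and 428 CPM in knockout (log2 fold change 0.06 ± 0.09; edgeR-adjusted p = 0.782).

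Whether a gene's genotype effect differed between clusters was tested as an interaction in edgeR with the sample as a block. Of all genes tested, 9.12% were called, and of the 8 genes 4 were. Tenm4 had an adjusted p of 1.76e-04 and kept its call in 10 of 10 alternatives. The adjusted p of Adgrl3 was 0.0109, and its call was kept in 7 of 10, being lost without wildtype replicate 1 or 4 or knockout replicate 2 (adjusted p up to 0.115). Tenm3 (0.0111) and Tenm2 (0.0178) were each called in 5 of 10, and both lost the call without wildtype replicate 1, 3 or 4 or knockout replicate 1, Tenm3 also without knockout replicate 3 and Tenm2 also without knockout replicate 2 (adjusted p up to 0.127 and 0.129). For Tenm2 the log2 fold changes ran from -0.37 in cluster 2 to 0.37 in cluster 4, and for Tenm3 from -0.53 in cluster 2 to 0.30 in cluster 5. Adgrl2 (0.0517), Flrt2 (0.234), Tenm1 (0.605) and Adgrl1 (0.956) were not called. The effects of Adgrl2, Flrt2 and Tenm1 in the clusters where they were called are therefore not shown to differ from those in the other clusters.

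Genes of known binding partners were taken from a list of 12, of which 11 had a row. They include neurexins, Unc5 receptors, the contactin Cntn6, dystroglycan, Fgfr1 and Robo1. In each of the 8 fits (all nuclei and 7 clusters) 0 partners were called higher in knockout. Of 11 tested, 2 were called lower over all nuclei (5.26% of all genes called) and in cluster 4 (4.29%). In clusters 1 (4.84%) and 3 (3.36%) 1 of 11 was, and in cluster 2 (9.11%) 2 of 10 were. In clusters 5, 6 and 7, 0 were, where 1.77%, 0.779% and 1.03% of all genes were called. These shares count calls in either direction, and the list as a whole was not tested. With the replicate block the calls over the 8 fits went from 8 to 20. Unc5c, a netrin receptor, had log2 fold changes of -0.89 over all nuclei, -1.52 in cluster 1, -3.45 in cluster 2 and -0.99 in cluster 4 (edgeR-adjusted p = 0.0107, 7.04e-04, 2.20e-05 and 0.0443). Unc5d, the best known Unc5 partner of Flrt2, was called in none of the 8 (log2 fold changes -0.65 to 0.20). Cntn6 had -1.32 over all nuclei, -0.97 in cluster 3 and -0.88 in cluster 4 (edgeR-adjusted p = 0.0359, 0.0146 and 0.00337). Robo1, a Slit receptor, went from 4628 ± 112 to 3147 ± 322 CPM in cluster 2 (log2 fold change -0.55; edgeR-adjusted p = 4.10e-04). The call of Cntn6 over all nuclei was kept in 6 of 14 alternatives and was lost without the nuclei of cluster 6. Cntn6 had its highest wildtype mean in cluster 6, at 189 ± 42.6 CPM. Its call in cluster 3 was kept in 10 of 13 alternatives and that of Unc5c in cluster 4 in 7 of 13. The other calls named were kept in all.

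Of 10 intracellular partners (among them G protein alpha subunits and Shank scaffolds), all had a row. Gnai1, an inhibitory G protein subunit, was called lower over all nuclei (log2 fold change -0.38; edgeR-adjusted p = 0.00456) and in cluster 2 (-0.95; 1.70e-04), where it was 96.5 ± 13.9 CPM in wildtype. Shank2, a postsynaptic scaffold that binds latrophilin tails, was called lower in cluster 4 (-0.39; 0.0223). The Shank2 call was kept in 9 of 13 alternatives. In clusters 1, 3, 5, 6 and 7 none of the 10 was called.

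Markers of neuron layers also changed between the genotypes. The summed level of the 6 upper-layer markers found was 2686 to 4340 CPM in wildtype and 1033 to 1610 CPM in knockout in cluster 2, where 6 of 6 were called lower, and 6124 to 7233 and 3563 to 5269 CPM in cluster 1, where 5 of 6 were. The 9 deep-layer markers summed to 8160 to 9844 CPM in wildtype and 11238 to 13278 CPM in knockout in cluster 2, and to 2500 to 2981 and 3742 to 5111 CPM in cluster 1, with 4 of 9 called higher in each. In cluster 3 the sums overlapped for both lists, with 0 of 6 upper-layer and 1 of 9 deep-layer markers called, and Tenm1, Tenm4 and Adgrl3 were called there. The deep-layer sums of the genotypes were also apart in clusters 5 (2483 to 2702 CPM in wildtype and 3056 to 3972 CPM in knockout), 6 (2302 to 2419 and 2710 to 3087 CPM) and 7 (2882 to 3167 and 3234 to 3961 CPM), where none of the 8 genes was called. Sox5 was called higher in those 3 clusters, and Bcl11b in cluster 5. In cluster 4, where Tenm4 was called, the sums of both layer lists overlapped. Fezf2 and Foxp2 were called higher there, and Pou3f2 was called lower in clusters 4 and 5. The summed apical progenitor markers were 2027 to 2509 CPM in wildtype and 1644 to 1702 CPM in knockout in cluster 4, with Slc1a3 and Fabp7 called lower. Nes, also of that list, was called higher over all nuclei and in clusters 1, 2, 3 and 7. The part of these markers in the changes of the 8 genes was not tested.

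Some markers of cell types born outside the cortex were called lower in clusters 1 to 3, and not there alone. Of the 7 GABAergic markers found, 4, 3 and 2 were called lower in clusters 1, 2 and 3, and of the 8 striatal-type markers 2, 2 and 0, while 0 of either list were called higher. In cluster 2 the GABAergic markers summed to 45.4 to 61.1 CPM in wildtype and 16.1 to 44.9 CPM in knockout, and the striatal-type markers to 26.5 to 52.5 and 15.0 to 23.5 CPM. The same sums were 47.0 to 70.7 and 15.7 to 39.5 CPM, and 41.3 to 68.1 and 17.9 to 29.8 CPM, in cluster 1. In cluster 3 they were 40.1 to 70.0 and 15.7 to 45.5 CPM for GABAergic markers and 55.2 to 82.1 and 30.5 to 50.4 CPM for striatal-type markers. No marker of either list was at 0 in these clusters. Over all nuclei 4 GABAergic and 3 striatal-type markers were called lower, and Dlx5 was in cluster 5. GABAergic sums in clusters 4 to 7 were 88.6 to 159, 59.5 to 93.7, 36.6 to 70.0 and 51.8 to 103 CPM in wildtype. In knockout they were 30.9 to 109, 23.1 to 75.6, 16.8 to 46.8 and 18.9 to 64.7 CPM, overlapping in each. The 10 genes that led cluster 6 summed to 381 to 845 CPM in wildtype and 87.4 to 374 CPM in knockout in cluster 2, where 5 of the 10 passed the filter on low counts and 1 was called, Tafa2 (316 to 742 and 51.8 to 151 CPM; log2 fold change -2.23; edgeR-adjusted p = 4.10e-04). Tafa1, which also led cluster 6, was 27.1 to 67.5 CPM in wildtype and 20.3 to 193 CPM in knockout there (log2 fold change 0.68; edgeR-adjusted p = 0.564). Of the others, Grik1 was at 3.83 to 6.85 and 3.63 to 8.36 CPM and Nell1 at 5.37 to 6.65 and 3.49 to 8.36 CPM in cluster 2, low in both genotypes. Adcy8 was at 2.28 to 22.2 CPM in wildtype and 0.436 to 8.71 CPM in knockout there (log2 fold change -1.36; edgeR-adjusted p = 0.245). The same 10 genes summed to 508 to 745 CPM in wildtype and 296 to 513 CPM in knockout in cluster 1, and to 345 to 471 and 201 to 333 CPM in cluster 3. One was called in each, Tafa2 in cluster 1 (log2 fold change -0.88; edgeR-adjusted p = 0.00697) and Nell1 in cluster 3 (-1.66; 0.00208). The part of these sums in the change of Adgrl3 was not tested.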

How the data were processed

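UMI counts per gene and nucleus were deposited by the authors for each of the 8 samples, not normalised, from libraries of the 10x Genomics single cell 3′ version 2 kit per the labels' protocols. Kallisto, bustools and the build mm10 are named in the submitters' processing notes, with no versions. Beside them the authors deposited, per the file headers, a total count and a hybrid score per nucleus (a doublet score, at most 0.500 here; no further doublet removal was done), a numbered cluster and a cell cycle angle. Positions in the deposited gene table equal GENCODE M21 starts for 352 of 14162 genes, so positions printed are those of M21, matched by gene ID. The listed genes, marker lists and partner lists were chosen with earlier results of these data known.

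For each sample, UMIs were added up over all nuclei and over each cluster with at least 50 nuclei in every sample. Knockout was tested against wildtype with edgeR 4.0.16 in R 4.3.3 (quasi-likelihood test, TMM scaling, filterByExpr, genotype alone, Benjamini-Hochberg adjustment over all genes of a fit). Standard errors given with edgeR were derived as the absolute log2 fold change over the square root of the test's F statistic. The interaction fit had sample, cluster and cluster by genotype. All 8 genes passed the filter in every fit. Alternatives were upper-quartile scaling, DESeq2 1.42.0, no filter on low counts, the replicate block, a sex term (any Xist UMI in a sample) and leaving out each sample. The labels do not say what a replicate number stands for. Deviations of same-numbered samples correlated at 0.398, 0.185, 0.192 and 0.179, and pairs of different number reached 0.287. By the rule that every value exceed 0.1 the numbers would pair the samples. Since the labels state no pairing, the main fits held genotype alone and the replicate block was run as an alternative. On simulated data edgeR recovered 89.5% of 200 genes changed by 1 on the log2 scale over all nuclei and 81% to 87.5% in the clusters. The interaction fit recovered 63.5%, with genes changed in cluster 2 alone and no effect shared by the clusters of a sample. False calls numbered 8 to 16 per fit. Every called change of the 8 genes was smaller than the simulated one, so these rates do not give the power for them. Named were all listed genes, with full values over all nuclei and wherever they were called or their groups did not overlap, called partners, and the 3 genes most like each. The result of 1 gene of the intracellular partner list is not reported here.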

Additional observations from a re-analysis of the deposited data

Results flagged for a closer look

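The interaction test of whether the genotype effect differed between clusters called 4 of the 8 genes and 9.12% of all genes tested. The edgeR-adjusted p was 1.76e-04 for Tenm4, 0.0109 for Adgrl3, 0.0111 for Tenm3 and 0.0178 for Tenm2. Of 10 alternatives, 10 kept the call of Tenm4, 7 that of Adgrl3, and 5 each those of Tenm3 and Tenm2.

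In 13 of 128 groups of 4 samples, 1 sample lay far from the other 3, where chance gives about 1 in 20 independent groups. These groups are not independent, since they share the same 8 samples and the sums over all nuclei hold the cluster sums. The count is therefore not shown to exceed chance. In cluster 6, knockout replicate 4 was high for Tenm1 (486 CPM against 332 to 355), Tenm2 (6656 against 3684 to 4127), Tenm3 (614 against 236 to 264) and Tenm4 (1827 against 1268 to 1308). The same sample was low in cluster 7 for Tenm2 (5288 against 6096 to 6231) and Flrt2 (381 against 403 to 404). Wildtype replicate 1 was low for Tenm4 over all nuclei (2253 against 2456 to 2485) and in cluster 1 (2818 against 3059 to 3098), and for Adgrl1 in cluster 3 (45.9 against 65.1 to 67.9). Knockout replicate 1 was low in cluster 4 for Tenm3 (525 against 562 to 569) and Adgrl2 (393 against 441 to 447) and in cluster 6 for Adgrl1 (39.6 against 71.5 to 74.5). In wildtype replicate 2, Tenm1 was low in cluster 6 (346 against 440 to 456).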

How the results depend on the processing

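Of the 11 calls of the 8 genes in clusters, 7 held in all 13 alternatives. Leaving out 1 sample gave between 0 and 2 called genes of the 8 over all nuclei, 2 and 4 in cluster 1, 3 and 5 in cluster 2, 1 and 3 in cluster 3, 1 and 2 in cluster 4, 0 and 1 in clusters 5 and 6, and 1 and 4 in the interaction. Among all genes it gave 263 to 994 calls over all nuclei, 335 to 647, 738 to 1074, 192 to 438, 316 to 534, 101 to 189, 51 to 148 and 63 to 142 in clusters 1 to 7, and 687 to 1171 in the interaction. Partner calls over the 8 fits ranged from 5 to 17 (binding) and 2 to 5 (intracellular). The replicate block treats same-numbered samples as pairs, which the labels do not state. It gave 5 of the 8 genes in cluster 2 and 20 binding partner calls. Over all nuclei and in clusters 3, 6 and 7 it gave 1344, 652, 253 and 255 genes, against 732, 400, 82 and 109. It changed no other call of the 8 genes. DESeq2 called 1217 genes over all nuclei. Without the nuclei of cluster 6, 1 of the 8 genes was called over all nuclei, with Tenm4 at 0.32. Over all nuclei signs turned for Tenm1 without knockout replicate 4 (-0.01; -0.01 to 0.11 over the samples left out), for Adgrl1 without wildtype replicate 1 (-0.10), knockout replicate 2 (-0.01) or 3 (-0.09; -0.10 to 0.20), and for Flrt2 without wildtype replicate 1 (0.00) or knockout replicate 4 (-0.01; -0.01 to 0.11). In clusters a sign turned in 16 combinations of gene and cluster, of which 0 were called, among them Tenm1 in cluster 4 (0.08, and -0.31 with the sex term) and Adgrl3 in cluster 6 (-0.06, and 0.12 without knockout replicate 4). With TMM scaling Tenm1 in cluster 3 was 764 and Tenm4 in cluster 5 3569 CPM. Unthinned shares in the cluster of the highest level were 65.4% (Tenm1), 68.1% (Tenm3), 97.1% (Tenm4), 15.49% (Adgrl1), 76.4% (Adgrl2), 96.2% (Adgrl3) and 64.1% (Flrt2). The causes were not tested. The calls of Tenm4 over all nuclei and in clusters 1 and 3 were each lost when 1 of several samples was left out, and Adgrl1 had at most 88.9 CPM in any sample and cluster.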
